A study of Mus musculus with 8 samples.

Results

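The endoplasmic reticulum (ER) arm of the unfolded protein response was followed in whole mouse hearts lacking LRPPRC through 10 genes, namely the sensors and transcription factor Ern1, Atf6 and Xbp1, the degradation adaptor Herpud1, the co-chaperone Dnajb9, and the folding factors Hspa5, Hsp90b1, Pdia4, Calr and Sdf2l1. They were picked by name as textbook genes of this response, and all 10 were found among the 50599 gene records of the RNA-seq tables and were tested. LRPPRC is an RNA-binding protein that keeps mitochondrial mRNAs stable, and the question put to these data was whether the ER response accompanied the stress response of cells with failing mitochondria. The tissue came from C57BL/6N males aged 12 weeks on normal chow. The 4 wildtype libraries came from animals that carried floxed Lrpprc alleles without Cre (Lrpprc loxP/loxP), and the 4 knockout libraries came from animals with the same alleles plus Cre (Lrpprc loxP/loxP,Cre+), whose deletion was restricted to heart and skeletal muscle. Cells of the heart other than muscle therefore could keep LRPPRC. Lrpprc itself served as the check of the labels and fell from 3665 ± 216 to 577 ± 48.6 normalised counts (SD, n = 4 each), with all 4 knockout libraries between 504.3 and 605.4. Normalised counts are RSEM expected counts corrected for transcript length and library size.

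Proteins that enter the ER are folded there by the Hsp70 chaperone BiP (Hspa5), the Hsp90 chaperone GRP94 (Hsp90b1), the lectin chaperone calreticulin (Calr) and disulfide isomerases such as ERp72 (Pdia4). When unfolded proteins accumulate, the membrane sensors IRE1 (Ern1), ATF6 (Atf6) and PERK (Eif2ak3) are activated. IRE1 splices Xbp1 mRNA so that it encodes an active transcription factor, ATF6 is cut to release another, and PERK phosphorylates eIF2α, which lowers translation and raises ATF4. ATF4 and its targets form the integrated stress response, which other kinases can also start, including in cells with mitochondrial defects. XBP1 and ATF6 are known to raise the chaperone genes through the ER stress response elements of their promoters, so a rise of the chaperones is the usual readout of an active ER response.

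These elements are shown because the genes that carry them did not move as one group in the knockout hearts. The 300 bases from 250 before to 50 after the annotated start were searched on both strands in the RefSeq promoters of build GRCm38.p6, where 9 of the 10 genes had an entry and Atf6 was named only. The letters searched were CCAAT, any 9 bases and CCACG for the ER stress response element (ERSE), ATTGG, any 1 base and CCACG for ERSE-II, TGACGTGG for the unfolded protein response element (UPRE), and TGATG, any 1 base and AA for the C/EBP-ATF response element (CARE). ERSE, ERSE-II and UPRE share the letters CCACG on one strand. The capitals mark the matched letters, and each sequence runs 5′ to 3′ on the strand of the gene. The windows were chr2:34772005-34772063 on the plus strand for Hspa5, chr10:86705513-86705676 on the minus strand for Hsp90b1, chr8:84847055-84847113 on the minus strand for Calr and chr8:94386297-94386407 on the plus strand for Herpud1.
Hspa5: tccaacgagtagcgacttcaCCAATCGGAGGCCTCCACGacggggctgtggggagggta
Hsp90b1: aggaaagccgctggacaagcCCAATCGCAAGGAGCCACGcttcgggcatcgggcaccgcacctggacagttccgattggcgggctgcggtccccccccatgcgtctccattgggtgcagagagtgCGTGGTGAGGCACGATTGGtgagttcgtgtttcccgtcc
Calr: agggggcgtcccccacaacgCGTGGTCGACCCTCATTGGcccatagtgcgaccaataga
Herpud1: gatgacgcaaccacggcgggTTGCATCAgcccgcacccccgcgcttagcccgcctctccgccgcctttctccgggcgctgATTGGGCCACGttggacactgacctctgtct

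Hspa5 held 1 ERSE, whose first base lay 65 bases before the start. Hsp90b1 held 1 ERSE at 212 bases before the start and another, on the opposite strand, at 107 bases. Calr held 1 ERSE on the opposite strand at 162 bases before the start. Herpud1 held an ERSE-II at 52 bases and a CARE on the opposite strand at 112 bases before the start. The other 5 genes with a promoter entry held none of these letters in the window. ERSE was present in 39 of 32851 promoters (0.119%), ERSE-II in 12 (0.0365%), UPRE in 222 (0.676%) and CARE in 1304 (3.97%).

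Before the results, the libraries were compared with each other. They held 35218541 to 47743376 expected counts each. Mitochondrial rRNA took 44.0% to 46.9% of the counts in wildtype and 65.6% to 67.8% in knockout libraries. Knockout replicate 3 stood apart from the other knockout libraries. The chi-square per degree of freedom over records with a mean of at least 100 counts was 49.3 to 73.9 between it and the other 3, 20.4 to 44.4 among those 3, and 6.02 to 13.8 among the wildtype libraries. For 6 of the 10 genes this library lay above the other knockout libraries, for 2 (Pdia4 and Calr) below and for 2 (Ern1 and Sdf2l1) inside their range, so results are also given without it. Its summed atrial markers (Myl4, Myl7, Sln and Bmp10) were 1268 normalised counts against 3233 to 6012 in the other knockout and 9980 to 12038 in the wildtype libraries. Its fibroblast markers summed to 19212 against 33049 to 64280, its macrophage markers to 4203 against 6087 to 10690.0, its B and plasma cell markers to 162 against 295 to 317, and its erythroid markers to 53861 against 15231 to 45829 in the other knockout libraries. The part of these values in the results below was not tested.

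Of the 10 genes, 4 rose in the knockout (Ern1, Atf6, Herpud1 and Dnajb9), 2 fell (Hsp90b1 and Calr) and 4 did not pass the test (Xbp1, Hspa5, Pdia4 and Sdf2l1). The fit over all 19959 records tested called 18.2% of them higher and 15.5% lower in knockout hearts (DESeq2, adjusted p under 0.05). The median log2 fold change of the 10 genes was 0.18, beside 0.01 over all records tested. Without knockout replicate 3, 4 were called higher and 3 lower, beside 3722 and 3300 of 19200 records, with a median of 0.06. Leaving out any other single library gave 1 or 2 lower calls, and without knockout replicate 1 the median was 0.28. Total-count scaling gave 4 higher and 4 lower calls, beside 1924 and 5912 of all 19961 records, and the median turned to −0.13. Total counts without mitochondrial rRNA gave 6 higher and 0 lower, beside 7950 and 1111 of 20459 records, with a median of 0.59. The increases were those of 2 sensors, the degradation adaptor and a co-chaperone, and the decreases those of 2 abundant folding factors. In whole-heart RNA, fewer cells of a type and less RNA per cell cannot be told apart.

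**Figure D1:**
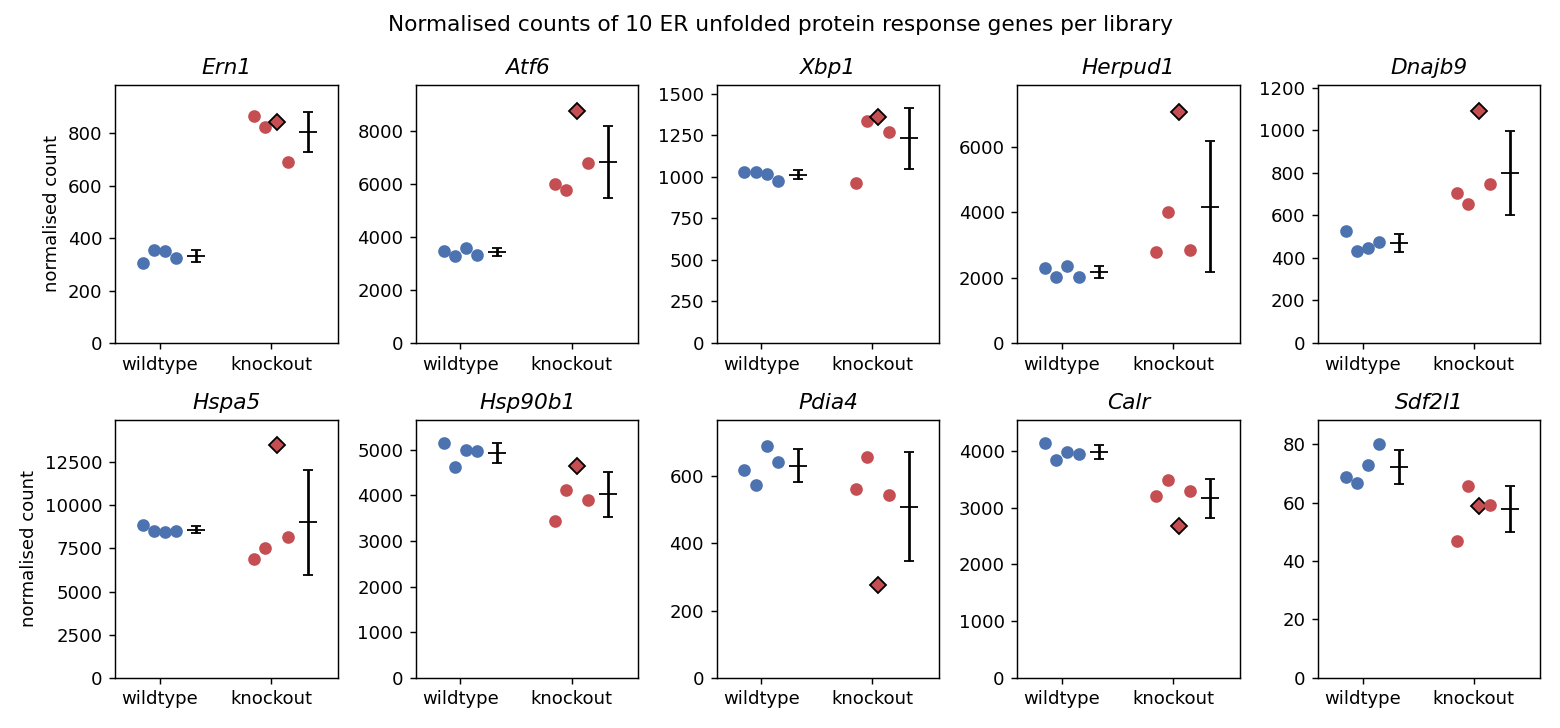
Normalised counts (vertical axes, starting at 0) of the 10 genes in the 4 wildtype (blue) and 4 knockout (red) libraries, with the mean and SD of each group as a black bar; the diamond marks knockout replicate 3. The knockout points of Ern1 and Atf6 all sit above the wildtype points, the 4 Hspa5 knockout points run from 6872 to 13491, and the Calr knockout points all sit below, with size factors that set the median gene near no change (the sign of the Calr change turns when libraries are scaled by their total without mitochondrial rRNA).

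Ern1 (chr11:106394650-106487852, minus strand, GRCm38) encodes IRE1α, the kinase and RNase that splices Xbp1. Its normalised counts were 305.6, 353.1, 350.1 and 323.5 in the wildtype libraries and 864.2, 822.5, 842.3 and 691.9 in the knockout libraries. Every knockout library lay far above every wildtype library. Ern1 rose 2.42-fold (95% interval 2.06 to 2.84, log2 fold change 1.27, SE 0.119, adjusted p = 5.70e-25 by DESeq2). Of the 4 genes that rose it had the smallest SE, and knockout replicate 3 lay inside the range of its group.

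Atf6 (chr1:170704674-170867771, minus strand) encodes the sensor that is cut in the Golgi to release a transcription factor. Its normalised counts were 3488, 3305, 3605 and 3323 in wildtype and 6018, 5782, 8760 and 6822 in knockout hearts, again without overlap. Atf6 rose 2.00-fold (1.65 to 2.42, adjusted p = 3.43e-11, DESeq2), and by a log2 fold change of 0.85 without knockout replicate 3, its highest library. The third sensor gene, Eif2ak3, had 226 ± 45.5 and 276 ± 66.1 normalised counts, with a log2 fold change of 0.29 and an adjusted p of 0.319 (DESeq2), and its groups overlapped. Atf6b, a relative of Atf6, did not pass the test either, at 155 ± 17.7 and 165 ± 61.4 normalised counts (adjusted p = 0.843, DESeq2).

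Xbp1 (chr11:5520659-5525893, plus strand), whose mRNA is the substrate of IRE1, had 1029.8, 1030.6, 1013 and 973.4 normalised counts in wildtype and 964.0, 1336, 1359.5 and 1266 in knockout hearts. The knockout libraries lay above the wildtype range except knockout replicate 1, which lay below it. The log2 fold change of 0.28 had a 95% interval of 0.03 to 0.53 and missed the threshold (adjusted p = 0.0701, DESeq2). Without knockout replicate 1 it was 0.39 (adjusted p = 1.21e-04), with libraries scaled by their total count it was −0.01 (adjusted p = 0.961), and with total counts without mitochondrial rRNA it was 0.71 and called higher (adjusted p = 9.67e-08). These values sum all Xbp1 transcripts, and the tables do not separate the spliced from the unspliced form.

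The effective length that RSEM assigned to Xbp1, a mean over its annotated transcripts weighted by their estimated abundance, was 1731.5 ± 15.7 bases in wildtype and 1811.5 ± 7.19 bases in knockout hearts. The groups did not overlap (two-sided exact permutation test, p = 0.0286, the smallest that 4 against 4 allows). Of the 10 genes looked at, the other 9 had exact p-values of 0.229 or more for this measure. These p-values were not adjusted for the 10 genes, so the Xbp1 difference is a description. Xbp1 has 4 annotated transcripts of 2129, 1099, 987 and 897 bases, and the effective length follows how RSEM shared the reads among them. Without the length correction, the Xbp1 log2 fold change was 0.35 and passed the test (adjusted p = 0.0161, DESeq2).

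Herpud1 (chr8:94386438-94395377, plus strand) encodes a membrane adaptor of the complex that moves misfolded proteins out of the ER for degradation, and it is the gene shown above with an ERSE-II and a CARE. Its normalised counts were 2291, 2034, 2358 and 2016 in wildtype and 2788, 4005, 7072 and 2841 in knockout hearts. All knockout libraries lay above the wildtype range, but they differed widely among themselves, and knockout replicate 3 was the highest. Herpud1 rose 1.92-fold (1.35 to 2.74, adjusted p = 0.00169, DESeq2). Its log2 fold change of 0.94 dropped to 0.56 without that library and still passed (adjusted p = 2.41e-04).

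Dnajb9 (chr12:44205559-44210326, minus strand) encodes ERdj4, a J-domain co-chaperone that acts with BiP and is a known target of XBP1. The wildtype libraries had 525.5, 434.6, 444.4 and 475.9 normalised counts and the knockout libraries 705.4, 651.6, 1090.5 and 749.5. The groups did not overlap, and knockout replicate 3 was again the highest. Dnajb9 rose 1.70-fold (1.34 to 2.16, adjusted p = 8.95e-05, DESeq2). Without that library the log2 fold change went from 0.77 to 0.58 (adjusted p = 4.14e-06).

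BiP, the main ER chaperone, did not pass the test with all libraries. Hspa5 (chr2:34771970-34777547, plus strand) had 8889.7, 8518, 8445 and 8539 normalised counts in wildtype and 6872, 7507, 13491 and 8187 in knockout hearts. Knockout replicate 3 lay above and the other 3 knockout libraries below the whole wildtype range, which spanned only 8445 to 8889.7. With all libraries the log2 fold change was 0.07, with a 95% interval of −0.32 to 0.45 and an adjusted p of 0.831 (DESeq2). Without knockout replicate 3, Hspa5 was called lower, with a log2 fold change of −0.19 (−0.35 to −0.04, adjusted p = 0.0455, DESeq2). With all 8 libraries its value also followed the scaling, at −0.24 (adjusted p = 0.281) with total counts and 0.48 (adjusted p = 0.0164, called higher) with total counts without mitochondrial rRNA, a scaling that raised the median gene by about as much.

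Hsp90b1 (chr10:86690209-86705509, minus strand) had 5155, 4626, 4988 and 4967 normalised counts in wildtype and 3439, 4111, 4643 and 3890.5 in knockout hearts. The groups met at one point, where knockout replicate 3 just passed wildtype replicate 2. Hsp90b1 fell by 0.30 on the log2 scale (SE 0.110, adjusted p = 0.0247, DESeq2), relative to a median gene near 0, and the sign turned to 0.13 (adjusted p = 0.303) with libraries scaled by their total without mitochondrial rRNA. The call was lost in 6 of 8 fits that left out 1 library, with adjusted p-values from 0.0570 to 0.0942, and it was strengthened to −0.37 (adjusted p = 1.21e-04) without knockout replicate 3. An overlapping pseudogene on the opposite strand held at most 148 expected counts in a library, and counting used the strand.

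Calr (chr8:84841850-84846934, minus strand), which binds calcium and newly made glycoproteins, had 4144, 3843, 3986 and 3956 normalised counts in wildtype and 3212, 3481, 2675 and 3290.4 in knockout hearts, without overlap. Calr fell by 0.33 on the log2 scale (SE 0.102, adjusted p = 0.00527, DESeq2), and by 0.26 without knockout replicate 3, its lowest library. Scaling by the total without mitochondrial rRNA turned this value to 0.10 (adjusted p = 0.559). Relative to the median gene, the value was −0.35 in the DESeq2 scaling and −0.34 in both scalings by total.

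Pdia4 (chr6:47796141-47813430, minus strand) had 619.1, 572.4, 690.7 and 642.9 normalised counts in wildtype and 561.0, 656.7, 277.0 and 542.7 in knockout hearts. Knockout replicate 3 held less than the lowest other library of either group. The log2 fold change was −0.31 with a wide interval of −0.75 to 0.14 (adjusted p = 0.311, DESeq2), and −0.11 without that library. Sdf2l1 (chr16:17130138-17132383, minus strand), a partner of BiP and its J-domain proteins, was the lowest of the 10 in counts. It had 68.97, 66.76, 72.83 and 80.28 normalised counts in wildtype and 46.95, 65.91, 58.74 and 59.23 in knockout hearts, so that all knockout libraries lay below, though its log2 fold change of −0.33 did not pass (−0.74 to 0.09, adjusted p = 0.246, DESeq2). Both values turned positive, to 0.13 and 0.10, with libraries scaled by their total without mitochondrial rRNA.

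**Figure D2:**
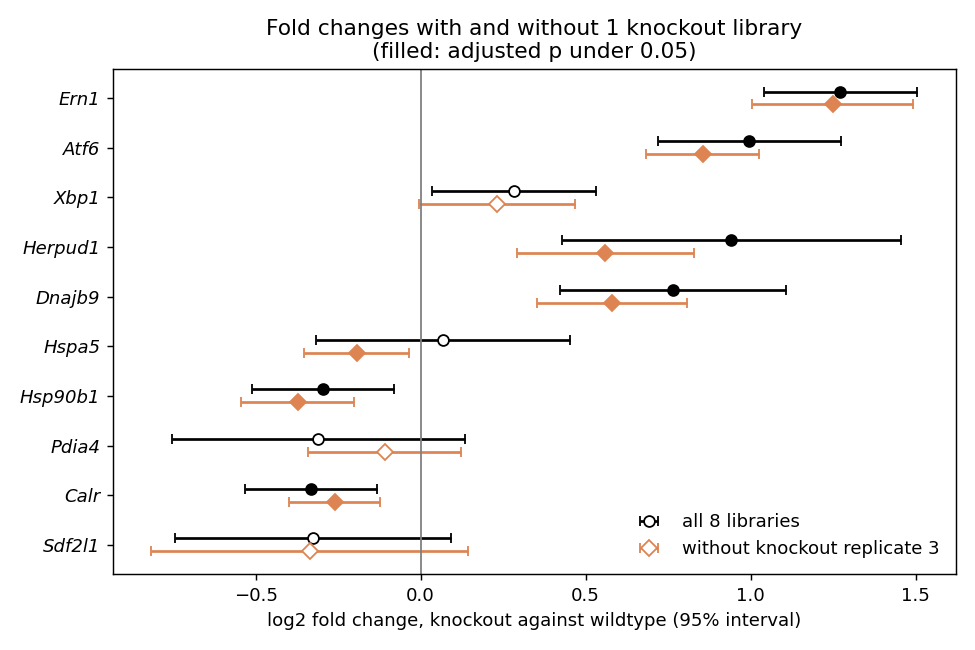
Log2 fold change of knockout against wildtype for the 10 genes (horizontal axis) with 95% intervals, from all 8 libraries (black circles) and without knockout replicate 3 (orange diamonds); filled symbols passed an adjusted p under 0.05. Ern1 sits at 1.27 and 1.25 in both fits, while Hspa5 goes from 0.07 to −0.19; Hspa5 and Xbp1 take the other sign with libraries scaled by total count, and Hsp90b1, Pdia4, Calr and Sdf2l1 with libraries scaled by total count without mitochondrial rRNA.

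The choice of scaling moved all genes together. Against the DESeq2 size factors, under which the median record with a mean of at least 10 counts had a log2 fold change of 0.02, scaling by total count put that median at −0.28 and scaling by total count without mitochondrial rRNA put it at 0.44. Of all calls, 53.9% were higher with the size factors, 24.6% with total counts and 87.7% with total counts without mitochondrial rRNA. Relative to the median record, the 10 genes barely moved. Ern1 lay at 1.25 in each of the 3 scalings, Atf6 at 0.97 or 0.98, Herpud1 at 0.90 to 0.92, Dnajb9 at 0.74 or 0.75, and Hspa5 at 0.03 to 0.05. Hsp90b1 lay at −0.31 to −0.32 and Calr at −0.34 to −0.35. The directions given below for other genes are those with the size factors, so they too are relative to the median record, and a fall by less than 0.4 on the log2 scale may take the other sign with total counts without mitochondrial rRNA.

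Ratios between 2 genes of one library do not depend on library scaling, so each gene was also set against Hspa5, the most abundant of them. This comparison was added after the values above were seen, it covers 12 ratios adjusted together, and the ratios share their denominator. The ratios of Ern1, Atf6, Herpud1 and Dnajb9 to Hspa5 were higher in all 4 knockout than in all 4 wildtype libraries. The log2 ratio of Ern1 to Hspa5 rose from −4.69 ± 0.13 to −3.44 ± 0.45 (SD, n = 4 each), a difference of 1.26. The differences were 0.96 for Atf6, 0.82 for Herpud1 and 0.72 for Dnajb9. Each of these 4 had the smallest p an exact two-sided permutation of 4 against 4 can give (p = 0.0286) and missed the threshold after adjustment over the 12 ratios (adjusted p = 0.0571). Without knockout replicate 3 the 4 differences were 1.44, 1.05, 0.74 and 0.78 in the same order.

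The ratios of the folding factors to Hspa5 differed less without knockout replicate 3. The difference for Calr was −0.35 with all libraries and −0.06 without it, for Pdia4 −0.39 and 0.09, for Sdf2l1 −0.35 and −0.15, and for Hsp90b1 −0.32 and −0.18. Their exact permutation p-values were 0.0571 for Hsp90b1, 0.143 for Sdf2l1, 0.286 for Calr and 0.743 for Pdia4. Xbp1 had a difference of 0.26 (exact permutation p = 0.171), and of 0.42 without that library.

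The sensors were also set against each other. The log2 ratio to Eif2ak3 differed by 0.996 for Ern1 and by 0.70 for Atf6, each higher in all 4 knockout than in all 4 wildtype libraries. Both missed the threshold after adjustment (exact permutation p = 0.0286, adjusted 0.0571). Ern1 against Atf6 differed by 0.29, with overlapping groups (exact permutation p = 0.200).

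**Figure D3:**
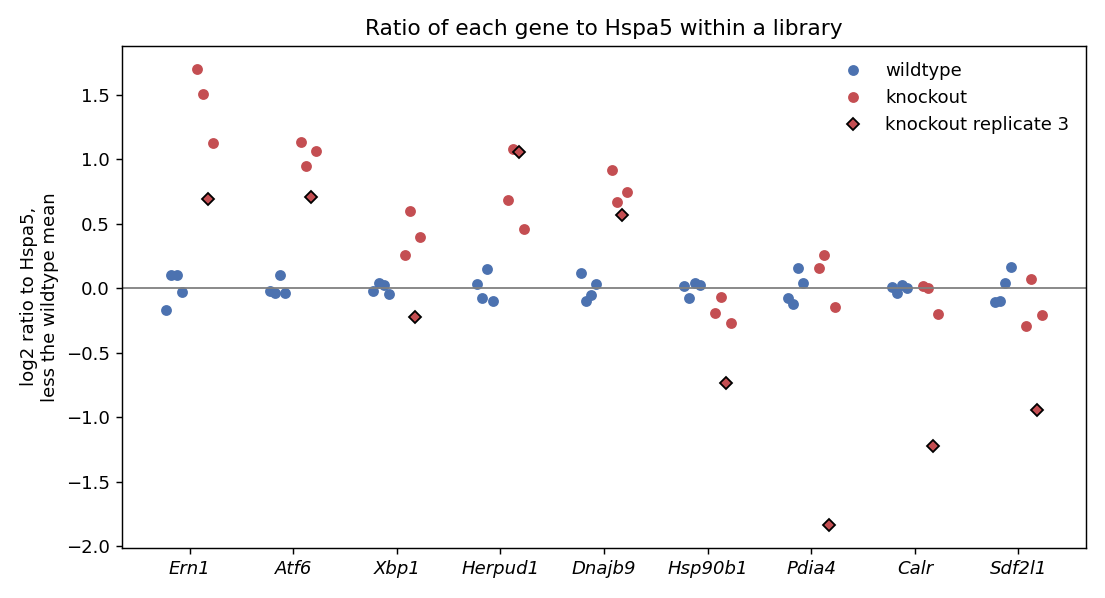
Log2 ratio of each of 9 genes to Hspa5 within a library, less the wildtype mean (vertical axis), for wildtype (blue) and knockout (red) libraries; the diamond marks knockout replicate 3. For Ern1, Atf6, Herpud1 and Dnajb9 all 4 knockout points lie above the wildtype points, whereas for Calr and Pdia4 the diamond lies far below the other 3.

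Levels can be compared between genes only per length, for which TPM were rescaled over nuclear protein-coding genes. Mean levels in wildtype hearts were 667 for Hspa5, 384 for Calr, 284 for Hsp90b1, 197 for Herpud1, 86.6 for Xbp1, 75.4 for Atf6, 43.0 for Pdia4, 31.04 for Dnajb9, 11.6 for Sdf2l1 and 10.0 for Ern1 on this scale, and no pair of neighbours in that order overlapped between libraries. In knockout hearts the order changed. Herpud1 moved from the fourth to the second place at 361, with libraries from 249 to 559.5 that overlapped both Hspa5 (526 to 915) and Calr (225 to 336). Atf6 at 146 stood above Xbp1 at 103 without overlap, the reverse of their wildtype order. Ern1 at 23.6 stood above Sdf2l1 at 9.07, also reversed and without overlap. Dnajb9 at 51.0 stood above Pdia4 at 34.4, but their ranges overlapped, as did those of Pdia4 and Ern1, of Herpud1 and Calr, and of Calr and Hsp90b1 at 225.

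The genes whose pattern over the 8 libraries was most like that of Hspa5 were not ER genes of the lists used here. Among the 10446 records whose mean reached 100 normalised counts, Heca (Pearson r = 0.988), the sarcomere gene Actn2 (r = 0.982) and Tatdn2 (r = 0.981) were closest, as a description over libraries that share knockout replicate 3 as their highest value. Actn2 had 19659 to 21390.0 normalised counts in wildtype hearts, 29394 in knockout replicate 3 and 18160.0 to 20616 in the other knockout libraries. Of the other genes of the set with a mean that high, Herpud1 came nearest at r = 0.628, followed by Dnajb9 at 0.491 and Hsp90b1 at 0.488, and Pdia4 lay at the opposite end at r = −0.837.

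The wider ER machinery was described by 6 lists with 141 genes, of which 135 were tested. Of these, 49 rose and 14 fell (36.3% and 10.4%, beside 18.2% and 15.5% of all records), with a median log2 fold change of 0.22. The shares of all records, here and for the lists below, include records with few counts. After a filter of 10 counts in 4 libraries the shares were larger, with 3511 higher and 3101 lower of 15846 records. With total-count scaling 24 rose and 38 fell, beside 1924 higher and 5912 lower of all 19961 records tested. With total counts without mitochondrial rRNA 95 rose and 2 fell, beside 7950 higher and 1111 lower of 20459 records. Leaving out the 10 genes, 45 of 125 rose and 12 fell. Relative to the median record, the median of the wider set was 0.20 in each of the 3 scalings, while its own sign turned to −0.07 with total-count scaling. Without knockout replicate 3, 45 rose and 17 fell, beside 3722 higher and 3300 lower of 19200 records. Counts given below for lists and motif genes in these 3 fits stand beside the same totals.

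ER-associated degradation, the removal of misfolded proteins to the proteasome, was the ER list with the most increases. Of its 29 tested genes 20 rose and 2 fell (69.0% and 6.90%, beside 18.2% and 15.5% of all records), with a median of 0.51 that stayed positive in all 3 scalings. The counts followed the scaling, with 11 higher and 6 lower by total counts and 24 higher and 1 lower by total counts without mitochondrial rRNA. Leaving out knockout replicate 3, 18 rose and 3 fell. Rnf185, a ubiquitin ligase of the ER membrane, went from 339 ± 8.28 to 811 ± 75.6 normalised counts (log2 fold change 1.26, adjusted p = 7.47e-29, DESeq2). Edem2, which trims mannose from misfolded glycoproteins, went from 110 ± 6.63 to 219 ± 23.0. Ubxn4, which recruits the ATPase VCP, went from 1062 ± 57.6 to 2051 ± 270. Each of these 3 had knockout libraries above all wildtype libraries. The genes that fell were Rnf5 (−0.60) and Sel1l3 (−2.41), both named after their values were seen, the latter with a mean of few counts.

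The translocon and signal-processing list, which covers entry of new proteins into the ER, had 10 genes of 26 that rose and 1 that fell (38.5% and 3.85%, beside 18.2% and 15.5% of all records), with a median of 0.27. The gene that fell was Rpn1 (−0.24), named after its value was seen. With total-count scaling 2 rose and 5 fell and the median turned to −0.02, and with total counts without mitochondrial rRNA 22 rose and 0 fell. Leaving out knockout replicate 3, 10 rose and 0 fell, since Rpn1 no longer passed. Stt3b, a catalytic subunit of oligosaccharyltransferase, had a log2 fold change of 0.62 that passed the test but not with total-count scaling (0.31, adjusted p = 0.0732). Ssr4 of the translocon-associated complex rose by 0.60 and Sec61a1, the channel itself, by 0.55 on the log2 scale. Sec61a1 had 802 ± 21.6 normalised counts in wildtype and 1175 ± 82.4 in knockout hearts.

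The sensors and regulators had 7 genes that rose and 2 that fell of 23 (30.4% and 8.70%, beside 18.2% and 15.5% of all records), with a median of 0.25. With total-count scaling 4 rose and 5 fell and the median turned to −0.05, with total counts without mitochondrial rRNA 17 rose and 0 fell, and without knockout replicate 3 6 rose and 3 fell. Besides Ern1 and Atf6, the largest call of this list among genes with a mean of at least 100 was Creb3, a membrane-bound transcription factor, at 269 ± 32.8 and 448 ± 94.2 normalised counts (log2 fold change 0.74, adjusted p = 2.45e-04, DESeq2). The genes that fell were Nfyb (−0.55) and Nfyc (−0.49), named after their values were seen. They encode subunits of NF-Y, the factor that binds the CCAAT letters of the ERSE. The subunit gene Nfya had a log2 fold change of −0.04 and did not pass.

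Chaperones and co-chaperones had 7 genes that rose and 3 that fell of 24 (29.2% and 12.5%, beside 18.2% and 15.5% of all records), with a median of 0.04. With total-count scaling 1 rose and 8 fell and the median turned to −0.26, and with total counts without mitochondrial rRNA 14 rose and 0 fell. Ppib, a prolyl isomerase, rose by 0.59 on the log2 scale, a call that was lost with total-count scaling (0.30, adjusted p = 0.0967). Fkbp2, another prolyl isomerase, had a log2 fold change of 0.56 whose adjusted p of 0.0414 (DESeq2) did not hold. It was 0.0534 with edgeR, 0.159 with the replicate block, 0.370 with total-count scaling, and 0.0571 to 0.156 without each wildtype library, knockout replicate 3 or knockout replicate 4. Beside Hsp90b1, the genes that fell were Hyou1 (−0.35), a large BiP-related chaperone, and Manf (−0.55), a secreted factor that binds BiP, both named after their values were seen. Manf had 453 ± 35.4 and 309 ± 37.6 normalised counts, without overlap. Without knockout replicate 3, 5 genes of the list rose and 5 fell.

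Of 23 disulfide enzymes 6 rose and 4 fell (26.1% and 17.4%, beside 18.2% and 15.5% of all records), with a median of 0.07. With total-count scaling 6 rose and 7 fell and the median turned to −0.22, with total counts without mitochondrial rRNA 12 rose and 1 fell, and without knockout replicate 3 6 rose and 5 fell. Ero1l, the oxidase that recharges protein disulfide isomerase and a known target of CHOP and of hypoxia signalling, had the largest increase of the ER lists, from 400 ± 28.0 to 1546 ± 180 normalised counts (log2 fold change 1.95, adjusted p = 1.05e-56, DESeq2). Qsox1, another sulfhydryl oxidase, rose by 1.51 and Txndc5, a disulfide isomerase, by 0.86 on the log2 scale. The genes that fell were Tmx4 (−0.71), Tmx2 (−0.53), Txndc11 (−0.49) and Txndc16 (−0.33), again named after their values were seen. Of the lectins and glycan-trimming enzymes, 0 rose and 2 fell of 12 (Calr and Lman2, a cargo receptor at −0.51), which was 16.7% lower calls beside 15.5% of all records, with a median of −0.10 that turned to 0.32 with libraries scaled by their total without mitochondrial rRNA. Lman2 was at −0.08 and no longer called in that scaling (adjusted p = 0.663). At an unadjusted p under 0.05 the counts of the list were 0 and 3 genes, and edgeR called 0 higher and 3 lower. With total-count scaling 0 rose and 8 fell, and with total counts without mitochondrial rRNA 7 rose and 0 fell.

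The ERSE letters shown above were also followed over the whole table. Of 8 tested ER genes with an ERSE in the promoter window, 0 were called higher and 2 lower (25.0%, Hsp90b1 and Calr), with a median log2 fold change of −0.17. Over all records, 19 tested genes held an ERSE, of which 0 were called higher and 3 lower, with a median of −0.10. These 3 were 15.8% of the set, near the 15.5% of all records called lower, while 18.2% of all records were called higher. At an unadjusted p under 0.05, and with edgeR, the counts in both sets were the same, 0 higher with 2 and 3 lower. These counts followed the scaling. Over all records with an ERSE, total-count scaling called 0 higher and 9 lower, and total counts without mitochondrial rRNA 5 higher and 0 lower. The ERSE medians in these scalings were −0.38 and 0.34, where the median record itself lay at −0.28 and 0.44. With the size factors the median record lay at 0.02, so the ERSE median lay below it in each of the 3 scalings. The fit without knockout replicate 3 called 0 higher and 6 lower. The ERSE-II was held by 8 tested genes, of which 4 were called higher (50.0%, beside 18.2% of all records) and 0 lower by DESeq2, Herpud1 among the former. The same counts came from edgeR. At an unadjusted p under 0.05 they were 6 and 0, with total-count scaling 1 and 0, and with total counts without mitochondrial rRNA 8 and 0. UPRE was held by 123 tested genes, of which 20.3% were called higher and 8.94% lower, and CARE by 377, of which 26.3% were called higher and 15.9% lower, beside 18.2% and 15.5% of all records. These are counts of letters, and with so few ERSE and ERSE-II genes they describe those genes only.

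Beside the ER genes, the integrated stress response list had 27 genes that rose and 1 that fell of 30 (90.0% and 3.33%, beside 18.2% and 15.5% of all records), with a median log2 fold change of 2.77. The gene that fell was Vldlr (−0.56), which like Ddit3 and Atf4 is named after its value was seen. Its knockout replicate 3, at 8741 normalised counts, lay above the wildtype libraries at 7764 to 8146, and its other knockout libraries lay below them. With total-count scaling 27 genes of the list rose and 2 fell, and with total counts without mitochondrial rRNA 29 rose and 0 fell. Ddit3, which encodes CHOP and is shared with the PERK arm of the ER response, went from 173 ± 30.6 to 1108 ± 272 normalised counts, and Atf4 from 997 ± 80.8 to 6084 ± 1048. Asns, the asparagine synthetase gene, went from 38.3 ± 13.9 to 2642 ± 415, the cytokine gene Gdf15 from 12.2 ± 3.37 to 1704 ± 650, and the amino acid transporter gene Slc7a3 from 0.84 to 5.10 in wildtype to 273 to 399 in knockout libraries. The wildtype counts of Slc7a3 were too few for a stable fold change.

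The mitochondrial chaperones and proteases had 11 genes that rose and 2 that fell of 18 (61.1% and 11.1%, beside 18.2% and 15.5% of all records), with a median of 0.50. Those that fell were Oma1 (−0.68) and Spg7 (−0.39), named after their values were seen. Lonp1, a protease of the matrix, went from 2091 ± 24.9 to 7966 ± 810 normalised counts, Grpel2, a co-chaperone of mitochondrial Hsp70, from 374 ± 40.5 to 1357 ± 233, and Afg3l2, an inner-membrane protease, from 1776 ± 87.6 to 3524 ± 359. Mitochondrial Hsp70 itself, Hspa9, also named after its values were seen, went from 11001 ± 454 to 21497 ± 2056, whereas its ER relative Hspa5 went from 8598 ± 199 to 9014 ± 3033. The medians of both lists stayed positive in all 3 scalings, with 6 higher and 4 lower of the mitochondrial list by total counts and 15 higher and 0 lower by total counts without mitochondrial rRNA.

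The cytosolic heat shock proteins had 9 genes that rose and 5 that fell of 23 (39.1% and 21.7%, beside 18.2% and 15.5% of all records), with a median of 0.11. With total-count scaling 3 rose and 9 fell and the median turned to −0.19, with total counts without mitochondrial rRNA 14 rose and 0 fell, and without knockout replicate 3 7 rose and 4 fell. Hspb1 rose by 1.14 and Hsp90aa1 by 0.87 on the log2 scale. Hspa1a fell by 1.44 (adjusted p = 0.00553, DESeq2), a call that was lost without wildtype replicate 2 (−1.06, adjusted p = 0.0628) and with total counts without mitochondrial rRNA (−1.01, adjusted p = 0.0649). It shares most of its sequence with Hspa1b, which had a log2 fold change of −1.01 and did not pass, so its reads may be split between the copies.

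**Figure D4:**
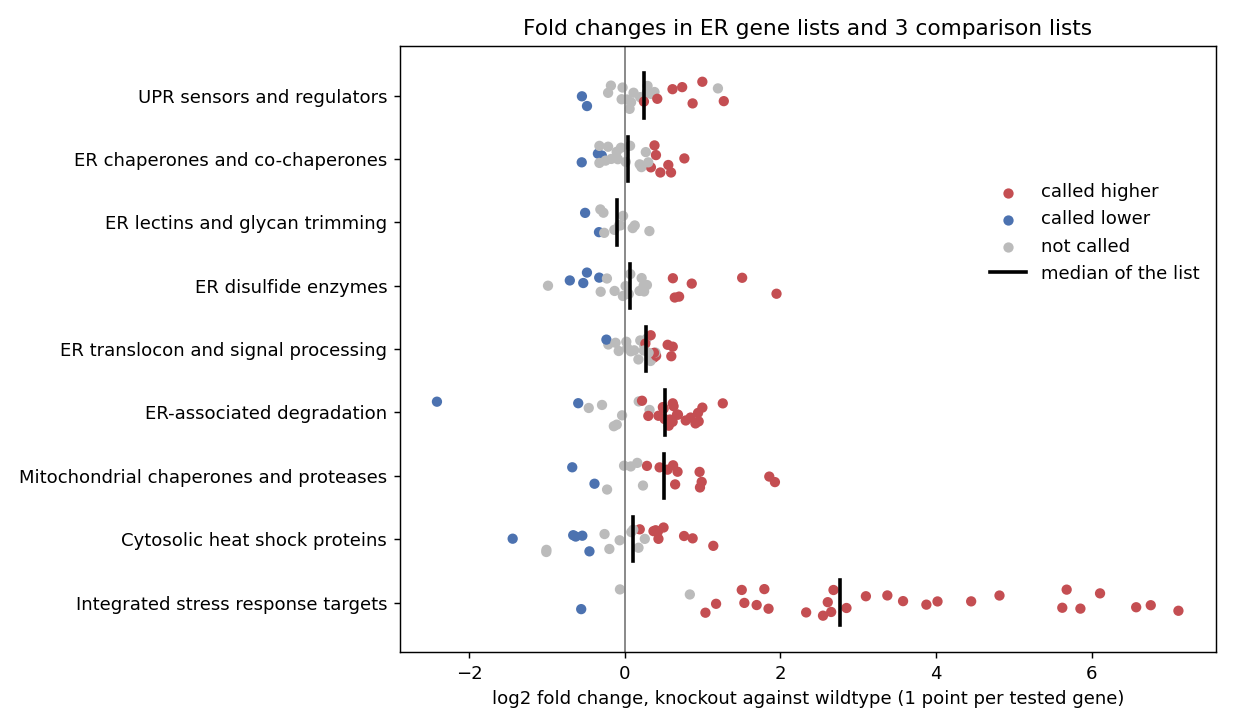
Log2 fold change of knockout against wildtype (horizontal axis) for every tested gene of 6 ER lists and 3 comparison lists, coloured by the call at an adjusted p under 0.05, with the median of each list as a black bar. Degradation genes centre on 0.51 and integrated stress response targets on 2.77, both positive in all 3 scalings, while chaperones centre on 0.04 and lectins on −0.10, whose signs depend on the scaling.

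Markers of several cell types moved with the genotype as well. Their calls stand beside 18.2% higher and 15.5% lower calls of all records. Of 8 cardiomyocyte markers 7 were called lower and 0 higher, and their summed normalised counts ranged from 2340000 to 2559700 in wildtype and from 1367000 to 1743100 in knockout hearts, so the labelled tissue was that of its markers and none was at 0. Of 8 fibroblast markers 4 were called higher, with sums from 18251 to 19005 in wildtype and from 19212 to 64280.0 in knockout hearts. Of 7 macrophage markers 5 were called higher, with sums from 4184 to 5746 and from 4203 (knockout replicate 3) to 10690.0, the other 3 knockout libraries lying at 6087 or more. Of 4 atrial markers 2 and of 6 smooth muscle and pericyte markers 2 were called lower. The 23 tested endothelial, B and plasma cell, erythroid and adipose markers had 0 calls by DESeq2, with 1 higher and 1 lower at an unadjusted p under 0.05, and 0 calls by edgeR, which tested 18 of them and only 3 of the 8 B and plasma cell markers. The markers of B and plasma cells, which are rich in ER, summed to 190 to 272 in wildtype hearts, 162 in knockout replicate 3 and 295 to 317 in the other knockout libraries. Fibroblasts secrete collagen through the ER, and the part of the marker changes in the values of the ER genes was not tested.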

How the data were processed

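RNA-seq was made from total RNA of 8 hearts after removal of cytoplasmic rRNA. The authors aligned paired, reverse-stranded reads with RSEM 1.2.31 and Bowtie2 to the GENCODE vM13 transcripts with added mitochondrial sequences carrying 50 adenines. The deposited tables give, for each library, the expected count, the TPM and the effective length of each gene as RSEM wrote them, before the authors' own analysis with tximport and DESeq2 1.16.1. A deposited table of normalised counts was left out because its 8 sample columns carry numbers that match no label, and a table of the authors' own fold changes and p-values was not used.

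Here the expected counts were rounded and fitted with DESeq2 1.42.0 in R 4.3.3, with effective lengths as an offset, genotype as the only term and unshrunken fold changes. Wald p-values were adjusted by Benjamini-Hochberg over all records tested, with a threshold of 0.05, and records without an adjusted p counted as not tested. Symbols were matched for 50339 of 50563 Ensembl identifiers. The genes have 0 near-identical copies (at least 95% identity over 200 bases). Depth is given above, and the number of libraries limits the precision. Each library came from 1 animal, so p-values measure the spread between animals of a group. Counts were also simulated for this comparison, without a length offset, with 200 genes changed and 20010 records tested. DESeq2 recovered 31.8% of the genes changed 1.5-fold, 66.7% at 2-fold and 83.8% at 4-fold, and 20.1% of its 154 calls were unchanged genes. With edgeR 4.0.16 this last share was 3.45% of 116 calls. The fit to the real counts called 3628 records higher and 3100 lower. Such shares depend on how many genes change, so they do not give the recovery or the share of false calls in the real fit.

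Correlations of the same replicate number across groups were −0.05 to 0.09, so no pairing by number was seen and the main fit used none. The labels do not say whether animals were paired, and these correlations cannot decide it. The genes, lists, motifs and tests were chosen with earlier results of these data known. The text names the 10 genes, Lrpprc, the 3 called genes with the largest change and a mean of at least 100 in each list, the 3 records most correlated with Hspa5, and others where said. Eif2ak3, Atf6b, Nfya and Hspa1b were named beside related genes after their values were seen. Alternatives were edgeR with TMM, no length offset, a filter of 10 counts in 4 libraries, size factors from nuclear records, both total-count scalings, a replicate block and leaving out each library.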

Additional observations from a re-analysis of the deposited data

Results flagged for a closer look

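In 4 of the 66 groups of 4 libraries examined among the named genes, 1 library lay far from the other 3 by Dixon's criterion, where about 1 in 20 (3.3 groups) would be found by chance. Lrpprc had 504.3 normalised counts in knockout replicate 2 and 597.4 to 605.4 in the others. Qsox1 had 1733 in knockout replicate 3 and 1331 to 1393 in the others. Lonp1 had 2054 in wildtype replicate 2 and 2100.5 to 2107 in the others. Hspb1 had 3530.0 in wildtype replicate 3 and 2255 to 2393 in the others. None of the 10 ER genes met this criterion.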

How the results depend on the processing

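Ern1, Atf6, Dnajb9 and Herpud1 stayed higher and past the threshold in all 15 alternatives, with ranges of 0.97 to 1.70, 0.69 to 1.41, 0.46 to 1.18 and 0.56 to 1.34 on the log2 scale. With edgeR each of the 10 genes kept its side of the threshold. The count of ER genes called higher, 4 in the report, was 5 with no length offset and without knockout replicate 1, and 6 with total counts without mitochondrial rRNA, where Hspa5 (0.48) and Xbp1 (0.71) were also called. The count of those called lower, 2 in the report, was 4 with total-count scaling, 0 with total counts without mitochondrial rRNA, 1 with the replicate block and 1 to 3 when 1 library was left out. The wider ER genes called higher were 24 and 95, and those called lower 38 and 2, in the total-count scalings with and without mitochondrial rRNA. The median of the 10 genes was −0.13 and 0.59 in these. Total-count scaling turned Hspa5 to −0.24 and Xbp1 to −0.011. Without mitochondrial rRNA it turned Hsp90b1 to 0.13, Pdia4 to 0.13, Sdf2l1 to 0.10 and Calr to 0.10. The scaling itself moved the median gene. Leaving out 1 library gave Hspa5 values from −0.19 (without knockout replicate 3) to 0.18. The alternative that sums near-identical copies was not run, since there were 0. The replicate block lowered all higher calls from 3628 to 2929 and lower calls from 3100 to 2596, and took Hsp90b1 to −0.30 (adjusted p = 0.0558, DESeq2), and only replicate 4 of the wildtype libraries correlated best with its own number in the knockout. Of the 10 genes Sdf2l1 had the fewest expected counts, 42 to 100 per library.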
